A study of Mus musculus with 9 samples.

Results

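The genes described here are 8 genes of red cells: the embryonic globins Hba-x, Hbb-bh1 and Hbb-y, the heme enzyme gene Alas2, the anion exchanger gene Slc4a1, the transcription factor gene Klf1, the nuclear protein gene Hemgn and the erythropoietin receptor gene Epor. They were chosen by symbol among the 22206 transcript clusters (probe sets that each represent a gene) of a mouse Clariom S array, and all 8 were present, with 1 cluster each. RNA of thymic lobes from C57BL/6 embryos at day e13.5 was measured on 9 arrays, 3 for each of 3 genotypes: wt (wild type), Foxn1933/1089, with 2 different mutant alleles of Foxn1 (Foxn1 mutants), and Tbx1neo2/neo2, homozygous for neo2, a hypomorphic allele of Tbx1 (Tbx1 mutants). Foxn1 is the transcription factor of thymic epithelium, and Tbx1 patterns the pharyngeal pouches from which the thymus arises. The comparisons ask how the lobes of each mutant differ in transcriptome from wild type and from each other. Pooling of lobes is not stated in the labels, nor whether each array had its own embryos. The p-values therefore measure the spread between these samples, which may be technical.

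Mouse embryos make red cells in successive waves. Primitive erythroblasts arise in the yolk sac, circulate while still nucleated and carry embryonic globin chains: the zeta chain from Hba-x, and the epsilon-y and beta-h1 chains from Hbb-y and Hbb-bh1. Definitive red cells are then produced in the fetal liver and carry adult chains. Erythropoietin acts through its receptor on young erythroid cells, KLF1 and GATA1 switch on globin, heme and membrane genes, and the messages that fill a maturing red cell are largely globin, heme enzyme and membrane messages. The fetal thymus is not known as a site of red cell production. Fewer red cells and less of a message per cell cannot be told apart in whole-lobe RNA.

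Regulation of these genes is known to run through GATA sites and CACCC boxes, the latter bound by KLF1, so the 180 bases before the annotated start of transcription are shown for the members found in the RefSeq promoter table (GRCm38.p6). Of the 8 members, 6 matched; Hbb-bh1 and Slc4a1 did not. Capitals mark the motif GATAA (reverse form TTATC), the motif CACCC (reverse form GGGTG) and the motif CCAAT (reverse form ATTGG), searched on both strands. All are written 5′ to 3′ on the strand of the gene, with coordinates of GRCm38.p6.
Hba-x, chr11:32276420-32276599, plus strand: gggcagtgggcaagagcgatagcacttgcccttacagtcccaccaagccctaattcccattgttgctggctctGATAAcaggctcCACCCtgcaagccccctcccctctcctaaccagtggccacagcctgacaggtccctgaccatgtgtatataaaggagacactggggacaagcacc
Hbb-y, chr7:103853208-103853387, minus strand: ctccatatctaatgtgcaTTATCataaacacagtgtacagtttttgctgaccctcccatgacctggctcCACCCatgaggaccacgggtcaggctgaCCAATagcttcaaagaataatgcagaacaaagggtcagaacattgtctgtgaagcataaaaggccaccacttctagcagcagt
Alas2, chrX:150547237-150547416, plus strand: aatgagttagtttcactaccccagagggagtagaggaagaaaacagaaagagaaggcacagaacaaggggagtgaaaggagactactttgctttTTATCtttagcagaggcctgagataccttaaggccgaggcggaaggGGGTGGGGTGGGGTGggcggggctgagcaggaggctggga
Klf1, chr8:84901802-84901981, plus strand: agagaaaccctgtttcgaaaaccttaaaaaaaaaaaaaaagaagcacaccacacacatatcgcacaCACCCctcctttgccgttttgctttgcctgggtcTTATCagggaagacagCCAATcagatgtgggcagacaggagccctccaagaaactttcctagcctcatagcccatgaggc
Hemgn, chr4:46404184-46404363, minus strand: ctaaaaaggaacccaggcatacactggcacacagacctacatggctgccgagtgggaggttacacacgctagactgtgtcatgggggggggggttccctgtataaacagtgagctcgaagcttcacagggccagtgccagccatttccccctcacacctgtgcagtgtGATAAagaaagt
Epor, chr9:21963577-21963756, minus strand: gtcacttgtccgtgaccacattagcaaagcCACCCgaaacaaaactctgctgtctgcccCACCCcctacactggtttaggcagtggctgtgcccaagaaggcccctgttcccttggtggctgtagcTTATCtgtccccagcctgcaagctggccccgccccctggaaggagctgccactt

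In the 250 bases before the start, GATAA lay in 6 of the 6 promoters and CACCC in 5, Hemgn being the exception, while CCAAT lay in 2, those of Hbb-y and Klf1. Among 32851 promoter windows of the same length in the table, 22.6% held GATAA, 52.0% held CACCC and 33.9% held CCAAT, and 10.1% held both GATAA and CACCC. Hba-x had GATAA at -107 to -103 and CACCC at -95 to -91, counted from the base before the start as -1, and a further CACCC at -198 to -194 outside the stretch shown. Alas2 had 3 CACCC boxes on the opposite strand between -40 and -26. A match is a description of letters and not evidence of a bound site. The members with these letters include both genes that were strongly read and genes that were near background, described next.

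On the log2 scale the clusters of an array had a median of 5.09 to 5.197, and its 5222 negative-control features one of 4.27 to 4.94. The thymic protease gene Prss16, a defining marker of the labelled tissue, read 13.87 to 14.43 on 7 arrays but 4.45 on Foxn1 mutant replicate 2 and 4.24 on wild type replicate 1. The summed levels of the leukocyte and thymic epithelial lists were low on the same pair of arrays, though not every listed gene was. Each difference of a member is therefore also given without this pair of arrays where that matters. The sample titles carry 3 date codes, here A, B and C, whose meaning no source used here gives. Code A holds 1 array of each genotype, code B holds wild type replicate 2 with Foxn1 mutant replicates 1 and 3, and code C holds wild type replicate 1 with Tbx1 mutant replicates 2 and 3. Uty, which is Y-linked, was at 7.56 to 8.84 on Tbx1 mutant replicate 1 and the wild type arrays. It was at 2.47 to 3.71 on the other 5. Sex and the contrast of Foxn1 mutants with wild type therefore cannot be told apart in these samples. The contrast of Tbx1 mutants with wild type is confounded with sex in part, since Tbx1 mutant replicates 2 and 3 were among the low arrays.

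Of the 8 genes, 5 were read far above background on every array and 3 were not. Hba-x, Hbb-bh1, Hbb-y, Alas2 and Slc4a1 stood above at least 92.5% of the negative controls on each array. Hemgn was above the negative-control median by 0.10 to 1.29 log2 units on 8 arrays and by 2.19 on Tbx1 mutant replicate 3, Epor was above it on 3 arrays and Klf1 on 0. The log2 differences of Klf1 and Epor given below are therefore differences between background values, and both genes enter the median and the mean profile of the 8.

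**Figure D1:**
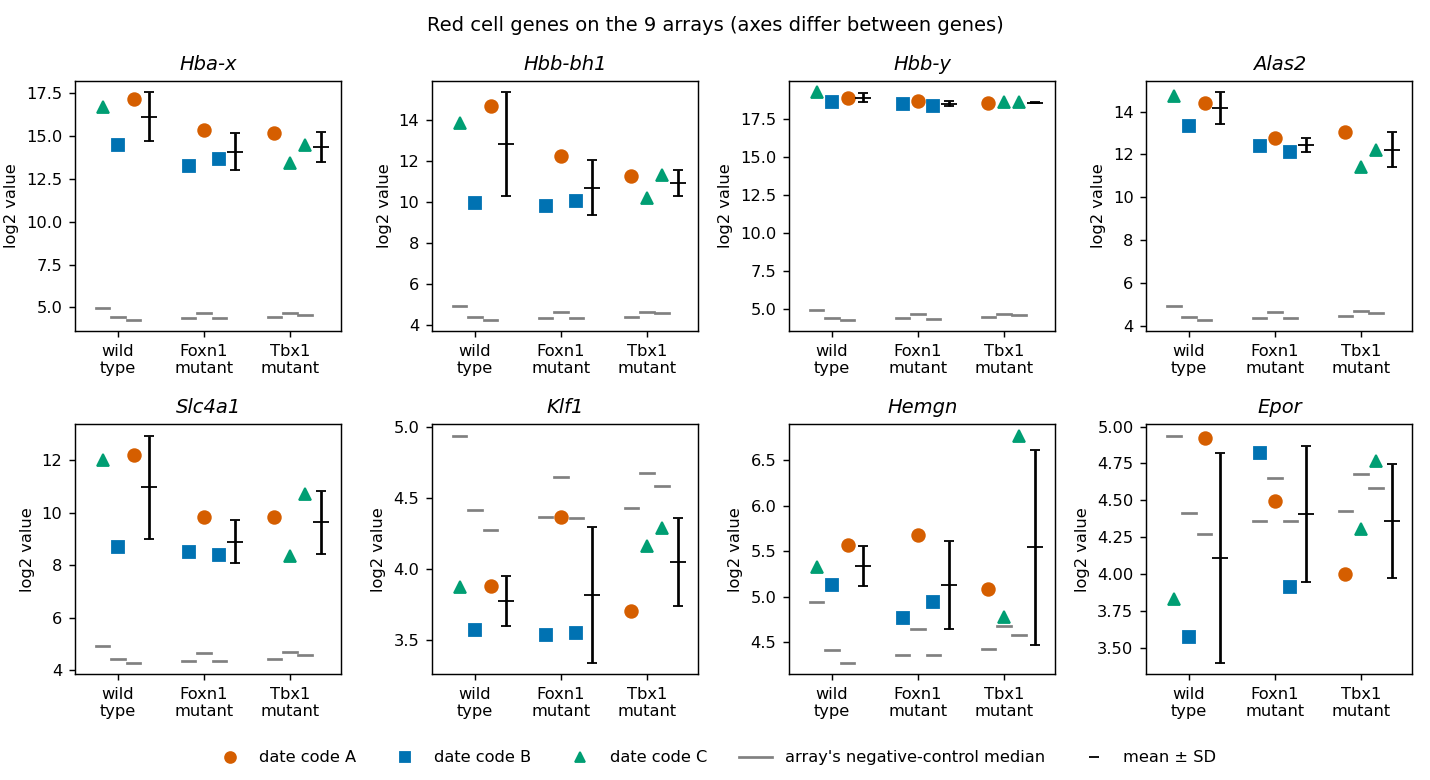
Log2 value of each gene (vertical axes differ between genes) on the 9 arrays, by genotype; symbols and colours mark the date code of the title, grey bars the negative-control median of the same array, and black bars the mean ± SD of 3 arrays. Wild type replicates 1 and 3 (code C triangle, code A circle) stand highest for Hba-x, Hbb-bh1, Alas2 and Slc4a1, while wild type replicate 2 (code B square) lies among the mutant arrays for Hbb-bh1 and Slc4a1, at 9.97 and 8.69.

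Among the globins, Hba-x, the embryonic alpha-type chain, read 16.70, 14.50 and 17.16 for wild type (replicates 1 to 3, as for each gene here). Foxn1 mutant arrays gave 13.27, 15.34 and 13.66, and Tbx1 mutant arrays 15.16, 13.42 and 14.47. Wild type replicates 1 and 3 were above all other arrays, and wild type replicate 2 was not above all mutant arrays. The lowest and highest arrays differed by 3.89 log2 units, or 14.8-fold. The genotype means of Hba-x, in the order wild type, Foxn1 mutant, Tbx1 mutant, were 16.12 ± 1.42, 14.09 ± 1.10 and 14.35 ± 0.88 (SD, n = 3).

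Hbb-bh1, an embryonic beta-type chain, had the widest range of the 8 genes, 4.86 log2 units. Wild type arrays gave 13.86, 9.97 and 14.68, Foxn1 mutant arrays 9.82, 12.25 and 10.08, and Tbx1 mutant arrays 11.26, 10.19 and 11.33. Wild type replicate 2 was lower than all arrays except Foxn1 mutant replicate 1. In the same order its means were 12.84 ± 2.52, 10.72 ± 1.33 and 10.93 ± 0.64 (SD, n = 3).

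Hbb-y, the epsilon-y chain, read 19.25, 18.63 and 18.85 on wild type arrays, 18.48, 18.68 and 18.36 on Foxn1 mutant arrays, and 18.53, 18.59 and 18.60 on Tbx1 mutant arrays. Its whole range was 0.89 log2 units, and the values lay 0.57 to 1.44 below the highest cluster of the same array. How far signal near the top of the scale follows the amount of RNA was not tested, so its small differences are not set against those of the other globins. The wild type arrays were above all 3 Tbx1 mutant arrays, but overlapped the Foxn1 mutants.

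Adult globin genes (Hba-a1, Hba-a2, Hbb-bs and Hbb-bt) were not analysed here, so the planned balance of embryonic against adult chains was not computed. The minor theta globin genes Hbq1a and Hbq1b, near-identical copies whose probes may share signal, were highest on wild type replicates 1 and 3. Hbq1a read 6.53 and 6.65 there against 4.196 to 4.73 on the other 7 arrays, and Hbq1b 7.21 and 7.51 against 3.98 to 5.58. Hbb-bh2, a globin gene beside Hbb-bh1, read 2.85 to 4.29 and was above the negative-control median on 1 array.

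Alas2 encodes the erythroid enzyme that starts heme synthesis. It read 14.74, 13.34 and 14.42 on wild type arrays, 12.38, 12.79 and 12.13 on Foxn1 mutant arrays, and 13.06, 11.41 and 12.22 on Tbx1 mutant arrays. It was the only member whose wild type arrays stood above all 6 mutant arrays. The share of all clusters with this separation was not computed. The means were 14.17 ± 0.73, 12.43 ± 0.33 and 12.23 ± 0.82 (SD, n = 3). Alas2 is on the X chromosome, and its values also split by Uty. It read 13.06 to 14.74 on the wild type arrays and Tbx1 mutant replicate 1, where Uty was high. On the other arrays, where Uty was low, Alas2 read 11.41 to 12.79. The part of sex in these values was not tested.

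Slc4a1, the band 3 chloride-bicarbonate exchanger of the red cell membrane, read 12.02, 8.69 and 12.20 on wild type arrays, 8.50, 9.84 and 8.38 on Foxn1 mutant arrays, and 9.83, 8.36 and 10.71 on Tbx1 mutant arrays. The pattern again set wild type replicates 1 and 3 above the rest, with wild type replicate 2 below 3 of the mutant arrays. Genotype means were 10.97 ± 1.98, 8.90 ± 0.81 and 9.63 ± 1.19 (SD, n = 3).

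The remaining 3 genes act earlier or at the level of control. Hemgn, a nuclear protein of erythroid and other blood progenitors, read 5.32, 5.13 and 5.57 on wild type arrays, 4.77, 5.68 and 4.94 on Foxn1 mutant arrays, and 5.08, 4.78 and 6.77 on Tbx1 mutant arrays. Its highest array was thus Tbx1 mutant replicate 3 and not a wild type array. Klf1, the zinc-finger factor that binds CACCC boxes, had means of 3.78 ± 0.18, 3.82 ± 0.48 and 4.05 ± 0.31 (SD, n = 3), with single arrays between 3.53 and 4.37, each under the negative-control median of its own array. Epor, the receptor of erythropoietin, ranged from 3.58 to 4.92 over wild type arrays, 3.91 to 4.82 over Foxn1 mutant and 4.00 to 4.77 over Tbx1 mutant arrays, and the genotypes overlapped.

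Between Foxn1 mutants and wild type, the 5 strongly read genes all had lower means in the mutants, and none passed the test. In log2 units (± SE from the limma fit to 9 arrays), Hbb-bh1 differed by -2.12 ± 1.11, Slc4a1 by -2.06 ± 0.93, Hba-x by -2.03 ± 0.77, Alas2 by -1.73 ± 0.46 and Hbb-y by -0.40 ± 0.21. Hemgn differed by -0.21 ± 0.48, and the background values of Klf1 and Epor by 0.040 ± 0.28 and 0.30 ± 0.39. The median of the 8 was -1.07, against 0.018 over all clusters. It was -1.34 to -0.81 with any 1 array left out, and a date code block gave -0.67.

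With limma and Benjamini-Hochberg adjustment over 22206 clusters, 0 of the 8 were called at an adjusted p of 0.05 (adjusted p = 1.00 for each), where 0% of all clusters were called. At an unadjusted p under 0.05, 2 of the 8, Hba-x and Alas2, were lower, against 1.77% of all clusters. All 3 Foxn1 mutant arrays lay below all 3 wild type arrays for 1 of the 8, Alas2, against 3.43% of clusters. The 95% interval of the difference ran from -2.77 to -0.70 for Alas2 and from -4.61 to 0.37 for Hbb-bh1.

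Date codes moved with some of these genes. The 3 arrays of code B read low for Hba-x (13.27 to 14.50), Hbb-bh1 (9.82 to 10.08) and Slc4a1 (8.38 to 8.69). Those of code A read higher without overlap, at 15.16 to 17.16, 11.26 to 14.68 and 9.83 to 12.20. Klf1, at background, was also apart, at 3.53 to 3.57 in code B and 3.70 to 4.37 in code A. The share of all clusters with codes A and B apart was not computed. Codes A and B overlapped for Alas2 (12.79 to 14.42 and 12.13 to 13.34) and for Hbb-y (18.53 to 18.85 and 18.36 to 18.63). Code C was wide, at 13.42 to 16.70 for Hba-x, 10.19 to 13.86 for Hbb-bh1, 11.41 to 14.74 for Alas2, 8.36 to 12.02 for Slc4a1 and 18.59 to 19.25 for Hbb-y. Within code A, with 1 array of each genotype, the Foxn1 mutant was below wild type by -1.82 for Hba-x, -2.43 for Hbb-bh1, -1.63 for Alas2 and -2.37 for Slc4a1. Within code B the same differences were -1.03, -0.0205, -1.085 and -0.25. With the date code as a fixed block the limma estimates were -1.4996 ± 0.39 for Hba-x, -1.10 ± 0.53 for Hbb-bh1, -1.55 ± 0.42 for Alas2 and -1.25 ± 0.68 for Slc4a1 (SE; adjusted p = 0.653, 0.888, 0.653 and 0.916), and -0.23 ± 0.21 for Hbb-y (adjusted p = 0.963), so that Hbb-bh1, Slc4a1 and Hbb-y moved by over 1.5 times. Without wild type replicate 2 Hbb-bh1 was -3.55 and Slc4a1 -3.20, and without wild type replicate 3 Hbb-bh1 was -1.20. Hbb-y was -0.23 without wild type replicate 1. With any 1 array left out Slc4a1 ranged from -3.20 to -1.45, Hba-x from -2.84 to -1.51, Alas2 from -2.15 to -1.45 and Hbb-y from -0.54 to -0.23. Without Foxn1 mutant replicate 2 and wild type replicate 1, Hba-x was -2.36, Hbb-bh1 -2.38, Alas2 -1.63 and Slc4a1 -2.01.

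Between Tbx1 mutants and wild type the same 5 genes were again lower in the mutants; the comparison uses the same wild type arrays and so is not separate support for the first. Alas2 differed by -1.93 ± 0.46, Hbb-bh1 by -1.91 ± 1.11, Hba-x by -1.77 ± 0.77, Slc4a1 by -1.34 ± 0.93 and Hbb-y by -0.33 ± 0.21 (log2, ± SE). The other members differed by 0.21 ± 0.48 (Hemgn), 0.27 ± 0.28 (Klf1) and 0.25 ± 0.39 (Epor). The median of the 8 was -0.83, against 0.015 over all clusters. It was -1.41 to -0.49 with any 1 array left out, and a date code block gave -1.31. Leaving out wild type replicate 2 gave the lowest value of Hbb-bh1 (-3.34) and Slc4a1 (-2.47). Hbb-bh1 was -0.99 without wild type replicate 3, and Hbb-y -0.16 without wild type replicate 1. Slc4a1 was -0.81, -0.72 and -0.70 without wild type replicate 1, wild type replicate 3 and Tbx1 mutant replicate 2. Hba-x ranged from -2.58 to -1.25 and Alas2 from -2.35 to -1.53.

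Limma called 0 of the 8 here (adjusted p = 0.771 for Alas2 and 1.00 for the others), where 0.0135% of all clusters were called. Again Hba-x and Alas2 were lower at an unadjusted p under 0.05, 2 of 8 against 1.82% of clusters. All Tbx1 mutant arrays were below all wild type arrays for 2 of the 8, Alas2 and Hbb-y, against 4.27% of clusters. For Hbb-y, near the top of the scale, the nearest arrays read 18.63 (wild type replicate 2) and 18.60 (Tbx1 mutant replicate 3). Within code A the differences were -2.00 for Hba-x, -3.42 for Hbb-bh1, -1.36 for Alas2 and -2.37 for Slc4a1, and within code C, with a single wild type array that had little Prss16, -2.75, -3.10, -2.92 and -2.48. With the date code as a fixed block the limma estimates were -2.30 ± 0.39, -2.93 ± 0.53, -2.12 ± 0.42 and -2.15 ± 0.68 (SE; adjusted p = 0.172, 0.196, 0.256 and 0.492), and -0.50 ± 0.21 for Hbb-y (adjusted p = 0.564), so that Hbb-bh1, Slc4a1 and Hbb-y again moved by over 1.5 times. Without Foxn1 mutant replicate 2 and wild type replicate 1, Hba-x was -1.48, Hbb-bh1 -1.40, Alas2 -1.65 and Slc4a1 -0.81.

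Between the mutants, the differences in the genotype model were smaller than their SE, and most turned sign with the date code as a block. Foxn1 minus Tbx1 mutants gave -0.26 ± 0.77 for Hba-x, -0.21 ± 1.11 for Hbb-bh1, 0.20 ± 0.46 for Alas2 and -0.73 ± 0.93 for Slc4a1 (log2, ± SE). The 95% intervals reached from -0.84 to 1.24 for Alas2 and from -2.70 to 2.28 for Hbb-bh1, so differences of that size remain possible. In limma 0 of the 8 were called (adjusted p = 0.999 for each) against 0% of clusters, 0 were lower at an unadjusted p under 0.05 against 1.29%, and for 0 did all Foxn1 mutant arrays lie below all Tbx1 mutant arrays, against 3.91%. With the block the limma estimates were 0.80 ± 0.48 for Hba-x, 1.83 ± 0.64 for Hbb-bh1, 0.57 ± 0.51 for Alas2 and 0.89 ± 0.83 for Slc4a1 (SE; adjusted p = 0.663, 0.470, 0.784 and 0.791). Within code A, the single shared code, they differed by 0.18, 0.99, -0.27 and 0.0049. Leaving out Foxn1 mutant replicate 2 and wild type replicate 1 gave -0.88 ± 0.73 for Hba-x and -1.20 ± 0.96 for Slc4a1 (limma, ± SE). In the same fit Hemgn was -0.69 ± 0.52 and Klf1, at background, -0.51 ± 0.24. Each of these exceeded its SE and had the sign opposite to its block estimate. Hbb-bh1 was -0.98 ± 1.10 and Alas2 0.023 ± 0.48, and none of the 8 was called.

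**Figure D2:**
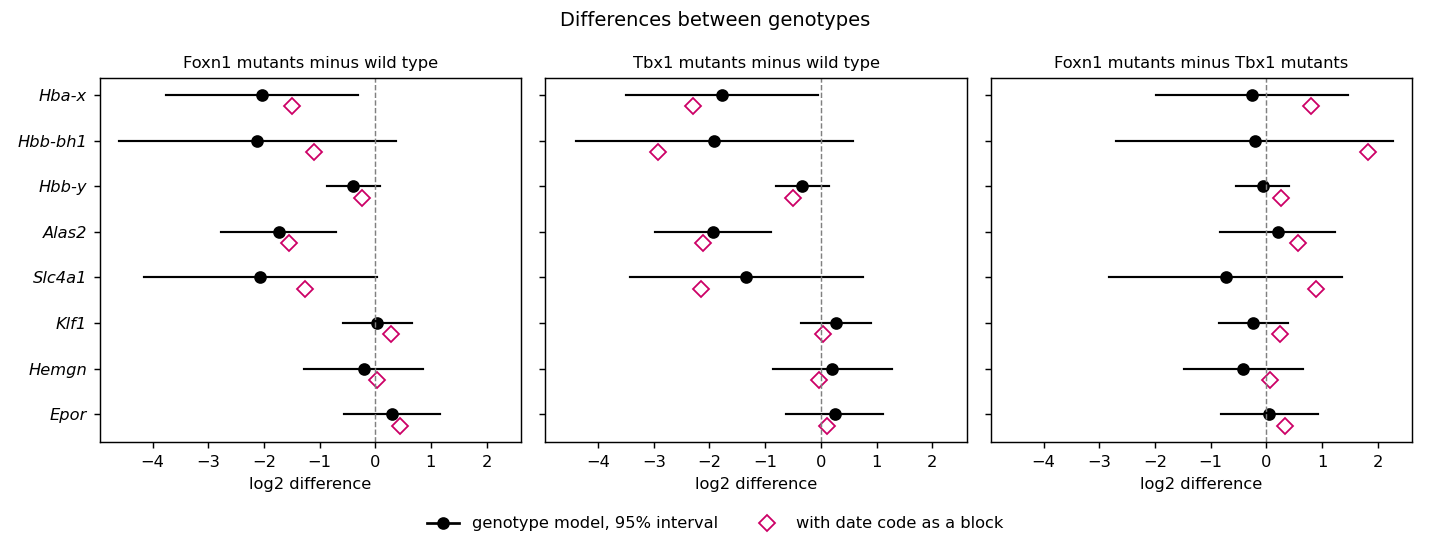
Log2 difference of each gene in the 3 comparisons; black points and lines are the genotype model with its 95% interval, and open diamonds the estimate with the date code as a block. Hba-x, Hbb-bh1, Alas2 and Slc4a1 lie left of 0 in both comparisons with wild type, most intervals are wide, and the diamonds of the mutant against mutant comparison lie to the right of 0.

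The 5 strongly read genes moved together from array to array. Over the 9 arrays, 10 of the 28 pairs of members had a Pearson r that passed an exact permutation test after Benjamini-Hochberg adjustment over the 28 pairs (adjusted p = 0.00567 to 0.0322), and these were the 10 pairs among Hba-x, Hbb-bh1, Hbb-y, Alas2 and Slc4a1. Their r lay between 0.80 and 0.96. Hba-x and Hbb-bh1, from the separate alpha-type and beta-type globin clusters, had r = 0.96 and Spearman rho = 0.85 (exact permutation p = 0.000231 and 0.00607, two-sided). By Spearman's rho 0 of the 28 pairs passed (lowest adjusted p = 0.0603, exact permutation).

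The relation leaned on wild type replicates 1 and 3, the arrays farthest from the median in each of the 10 pairs. Without them r of the 10 pairs ran from 0.24 to 0.83; it was 0.83 for Hba-x with Hbb-bh1, 0.82 for Hbb-bh1 with Slc4a1 and 0.24 for Hbb-bh1 with Alas2. After the means of the date codes were subtracted the 10 values ran from 0.76 to 0.97, and after the genotype means from 0.58 to 0.95. Over the 7 arrays without Foxn1 mutant replicate 2 and wild type replicate 1 they ran from 0.69 to 0.95, and 0 pairs passed (lowest adjusted p = 0.0819, exact permutation). The 18 pairs with Klf1, Hemgn or Epor had r from -0.17 to 0.64 and none passed. The highest was Klf1 with Hemgn at 0.64 (adjusted p = 0.121, exact permutation), with Klf1 at background.

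**Figure D3:**
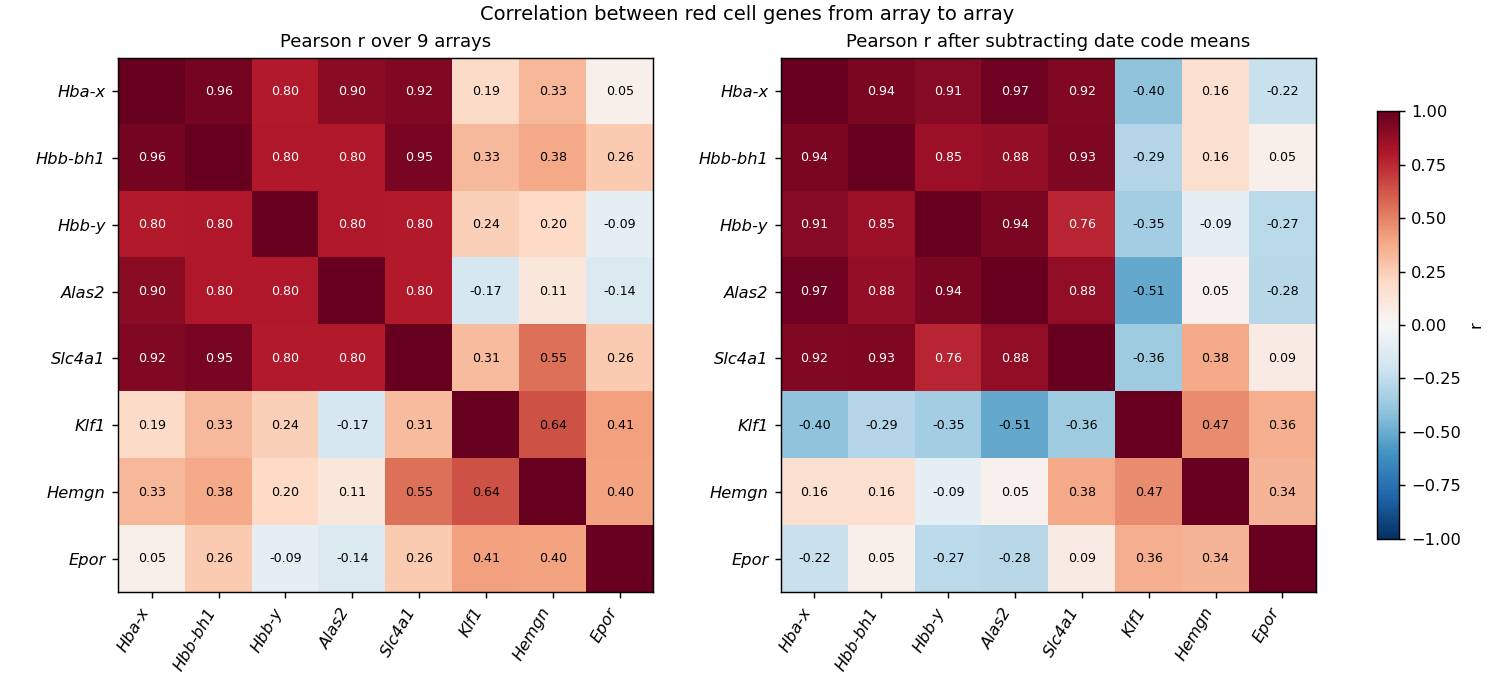
Pearson r between each pair of genes over the 9 arrays (left) and after the mean of each date code was subtracted (right), with red for positive and blue for negative values. The block of Hba-x, Hbb-bh1, Hbb-y, Alas2 and Slc4a1 is dark red in both panels (0.80 to 0.96 and 0.76 to 0.97), while values with Klf1, Hemgn and Epor reach at most 0.64 on the left.

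Genes whose pattern over the 9 arrays was most like the mean profile of the 8 were sought among the 8655 other named genes with a mean of at least 6. The mean profile (deviation from each gene's own mean, averaged) was 1.04 on wild type replicate 1, 1.30 on replicate 3, 0.27 on Foxn1 mutant replicate 2, 0.23 on Tbx1 mutant replicate 3 and -0.79 to -0.09 on the other 5 arrays. The 8 with the highest Pearson r were Hsd3b6 (0.99), Blvrb (0.98), Hsd3b3 (0.95), Riok3 (0.95), Kel (0.95), Epb42 (0.95), Trim10 (0.94) and Tmcc2 (0.94). Blvrb is biliverdin reductase B of red cells, Kel the Kell blood group protein, Epb42 the membrane skeleton protein 4.2 and Trim10 a factor of erythroid maturation. Hsd3b6 and Hsd3b3 belong to a family of close copies whose probes may share signal; Hsd3b6 read 15.33 on wild type replicate 1, 15.35 on replicate 3 and at most 13.39 elsewhere.

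Among other red cell genes taken from lists, those with r of at least 0.8 were enzymes, heme genes and membrane genes. Of 45 listed genes with a mean of at least 6, 10 had r of at least 0.8 (22.2%), against 99 of 8655 candidates (1.14%). These 10 included 5 of 9 enzymes and maturation factors, 3 of 13 heme and iron genes and 2 of 6 membrane genes. They included 0 of 10 erythroid transcription factors and 0 of 7 genes of erythropoietin and stem cell factor signalling. The minimum mean had left out Gata1, Tal1, Lmo2 and Nfe2 of the factors, and Epo, Cish, Erfe and Tfr2 of the signalling list. The counts say nothing about these genes. Median r was 0.84 for enzymes and maturation, 0.52 for heme and iron, 0.52 for membrane, 0.29 for transcription factors and -0.34 for the signalling list. Fech, which inserts iron into heme, had r = 0.91 and the iron importer of mitochondria Slc25a37 r = 0.89. Myb, a progenitor factor shared with thymocytes, had r = -0.48 and the stem cell factor receptor Kit r = -0.34. Both were lowest on Foxn1 mutant replicate 2 and wild type replicate 1 (Myb at 5.34 and 6.35 against 11.14 to 12.59). These arrays had the lowest summed log2 levels of the leukocyte list, at 57.6 and 57.9. The macrophage list was highest on Foxn1 mutant replicate 2, at 57.1.

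**Figure D4:**
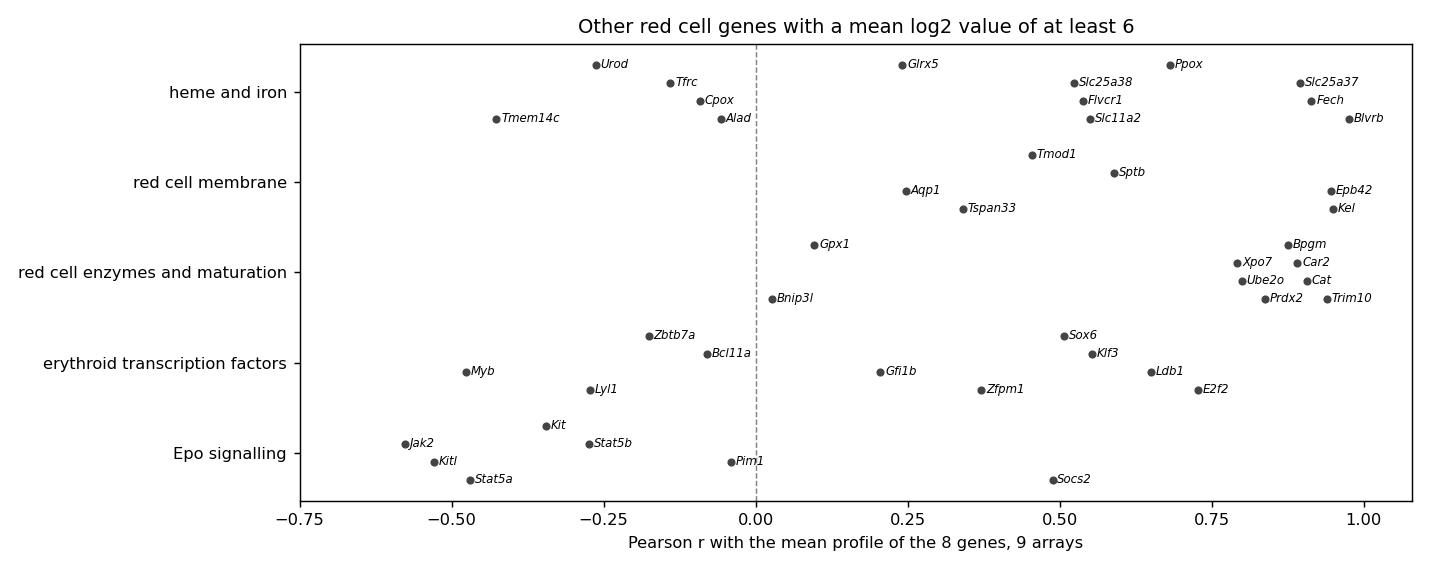
Pearson r over 9 arrays between listed red cell genes (points, by list, offset vertically for legibility) and the mean profile of the 8 genes. Enzymes and maturation genes crowd at the right, with 5 of 9 at or above 0.8, and the signalling genes lie mostly left of 0.

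In the comparisons, the listed red cell genes were mostly lower in both mutants, and limma called none of them. Between Foxn1 mutants and wild type, 17 of 17 measured membrane genes were lower with a median of -0.77, 10 of 14 enzyme and maturation genes with -0.37, 12 of 16 heme and iron genes with -0.24, 12 of 14 transcription factors with -0.27 and 8 of 11 signalling genes with -0.0525. Between Tbx1 mutants and wild type the counts were 15 of 17 (-0.53), 13 of 14 (-0.24), 10 of 16 (-0.16), 8 of 14 (-0.053) and 2 of 11 (0.14). Over all clusters 47.6% and 47.8% were lower, with medians of 0.018 and 0.015. The counts of the lists include genes that no array read above its negative-control median. The genes with the lowest p of the F test in their lists were Car2, a carbonic anhydrase (8.43 ± 0.60, 6.32 ± 0.76 and 6.87 ± 1.02 for wild type, Foxn1 and Tbx1 mutants, SD, n = 3), Ube2o, a ubiquitin ligase of reticulocyte maturation (9.002 ± 0.59, 7.92 ± 0.49 and 8.17 ± 0.030), Fech (11.21 ± 0.52, 10.11 ± 0.56 and 10.27 ± 0.49), Slc25a37 (10.83 ± 0.61, 9.80 ± 0.45 and 9.83 ± 1.09), Kel (8.57 ± 1.90, 6.24 ± 0.70 and 6.53 ± 1.12) and the red cell membrane gene Xk (5.32 ± 0.58, 4.53 ± 0.20 and 4.66 ± 0.38). Among regulators they were E2f2 (8.65 ± 0.70, 7.90 ± 0.50 and 7.34 ± 0.63), Gfi1b (6.996 ± 0.81, 6.34 ± 0.53 and 6.27 ± 0.72), the kinase gene Pim1 (8.90 ± 0.45, 7.66 ± 1.30 and 8.51 ± 0.36) and Kitl, the stem cell factor gene (9.64 ± 1.59, 9.89 ± 1.17 and 10.69 ± 0.53). The mean of Kitl was higher in both mutants, but its lowest values came from the pair of arrays with little Prss16. These were 7.81 (wild type) and 8.54 (Foxn1 mutant). Elsewhere Kitl read 10.46 and 10.66 in wild type, 10.485 and 10.64 in Foxn1 mutants, and 10.08 to 11.03 in Tbx1 mutants. Epo itself read 2.43 to 2.93, under the negative-control median on all 9 arrays, as did Tal1, while Gata1 was above it on 2.

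Markers of other cells moved in part with the same arrays. The 7 measured megakaryocyte and platelet genes, the sister lineage, were lower in both mutants in 7 of 7 cases (medians -0.80 and -0.36); their summed log2 level ranged from 39.4 to 50.6 for wild type, 38.6 to 39.5 for Foxn1 and 39.0 to 46.9 for Tbx1 mutants, and the platelet receptor gene Gp9 read 5.38 ± 0.52, 4.58 ± 0.25 and 4.73 ± 0.056 (SD, n = 3). Neuronal genes were high on 1 of the arrays with the highest globins: their 7 measured members summed to 83.3 on wild type replicate 1 and to 35.9 to 40.7 elsewhere, so that 7 of 7 were lower in both mutants (medians -2.31 and -2.77). Wild type replicate 3, where the globins were as high, had a sum of 38.4. The 10 endothelial genes did not share that direction, with 8 of 10 and 9 of 10 higher in the mutants. Hypoxia-induced genes, 11 and 9 of 12 lower, had a summed log2 level of 120.4 to 129.9, 113.2 to 118.5 and 112.95 to 120.2. The part of these in the differences of the red cell genes was not tested.

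Tbx1 mutant replicate 3, the array with the highest Hemgn, also had the highest mean of the fetal liver list. That list of 7 hepatocyte genes summed to 68.3 on it, 44.6 and 34.1 on the other Tbx1 mutants, 35.3 to 49.9 over wild type and 45.3 to 64.7 over Foxn1 mutant arrays, and Alb, serum albumin, read 15.42 there and 7.31 to 12.58 elsewhere. Of the 17 measured red cell membrane genes, 5 were highest there, 2 of them never above the negative-control median, while 7 were highest on wild type replicate 3 and 3 on replicate 1. Among the 5 were Cldn13 and Rhag, picked after their values were seen, Cldn13 at 7.16 (3.20 to 5.76 elsewhere) and Rhag at 7.95 (3.72 to 6.72 elsewhere). The next highest liver sum, 64.7, was that of Foxn1 mutant replicate 1, with Cldn13 at 3.20, Rhag at 4.69 and Hemgn at 4.77. The part of liver RNA in the level of Hemgn was not tested. Without Tbx1 mutant replicate 3 the difference of Hemgn between Tbx1 mutants and wild type turned from 0.21 to -0.41.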

How the data were processed

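Total RNA was extracted with mirVana reagents, amplified and labelled with Affymetrix WT kits, per the labels' protocols. The authors deposited log2 values for the arrays, which were used unchanged; no source used here gives their software, normalization or build. Control features were left out, leaving 22206 transcript clusters, of which 19572 had 1 gene symbol in the platform annotation and 2634 none. The highest-mean cluster stood for each gene.

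Genotype differences came from limma 3.58.1 under R 4.3.3 (9 arrays, 1 term per genotype, empirical Bayes, two-sided), with Benjamini-Hochberg adjustment over all clusters. The fit was tested on simulated data, with 200 clusters changed in the Foxn1 mutants by 1, 2 or 4 log2 units. Of these, 0%, 73% and 97.5% were called against wild type, and 0%, 5.2% and 7.1% of the calls were false. The changed clusters were drawn at random, in a single run per size. The noise was normal and independent between clusters, with no shared effect of date code or sex. These shares therefore do not give the chance of a call for the 8 genes. Correlations used exact permutation over pairings (numpy 2.4.6, Python 3.11.15); figures used matplotlib 3.10.9. The members and lists were chosen with earlier results of these data known. The planned genes to name were the members, the 2 of lowest F-test p in each of 17 lists, and the 8 genes of most similar pattern. Outside the red cell lists only some of these are printed, such as Gp9 without Itgb3 and Alb without Ttr. Hbq1b, Prss16, Epo, Tal1, Gata1, Myb, Kit, Cldn13, Rhag and Pf4 were added after their values were seen. Lmo2, Nfe2, Cish, Erfe and Tfr2 are named only as left out by the minimum mean. Replicate numbers follow accession order and pair no samples. Alternatives were quantile normalization, median centring, a filter at a mean of 5.15, trended robust moderation, array weights, date code blocks, only the groups compared, and leaving out arrays. The number of arrays limits the precision.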

Additional observations from a re-analysis of the deposited data

How the results depend on the processing

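No member was called in any comparison under any alternative run, and Hba-x, Hbb-bh1, Hbb-y, Alas2 and Slc4a1 kept their direction against wild type in all of them. Of 426 values of single members, 403 kept direction and 23 turned. Each gene has 1 cluster, so averaging clusters changes nothing; the low-mean filter left out Klf1 and Epor, so no median of 8 was taken there. Globin balance was not run. With the date code as a fixed block the difference between Foxn1 and Tbx1 mutants turned to 0.80 for Hba-x, 1.83 for Hbb-bh1, 0.27 for Hbb-y, 0.89 for Slc4a1, 0.25 for Klf1 and 0.071 for Hemgn (median 0.45, from -0.22), and Hemgn turned to 0.035 (Foxn1 mutants against wild type) and -0.036 (Tbx1 mutants); the cause was not tested. Klf1, Foxn1 mutants against wild type, was -0.073 with array weights and -0.19 without both arrays of little thymic signal. With 1 array left out it ran from -0.24 to 0.18; against wild type in Tbx1 mutants Epor ran from -0.0195 to 0.65 and Hemgn from -0.41 to 0.59. Between the mutants the ranges were -0.88 to 0.15 (Hba-x), -0.98 to 0.24 (Hbb-bh1), -0.15 to 0.0079 (Hbb-y), -0.21 to 0.61 (Alas2), -0.79 to 0.20 (Hemgn) and -0.15 to 0.30 (Epor). Clusters called between Tbx1 mutants and wild type numbered 3, and 17 with array weights, 1 with the block, 0 with only those arrays and 0 to 20 with 1 array left out. Between Foxn1 mutants and wild type they numbered 0, and 1 with only those arrays and 0 to 3 with 1 left out. Between the mutants they numbered 0, and 4 with array weights, 2 without both arrays, 2 with only those arrays and 0 to 3 with 1 left out. The F test called 2, and 1 with the block and 0 to 3 with 1 left out. Member pairs passing numbered 10, 7 after quantile normalization and 0 over 7 arrays. Klf1 and Epor lie at background, which limits what their values can show.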

Other observations

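Hepatocyte messages differed widely between arrays of one genotype. Alb read 9.60, 9.75 and 7.31 on wild type arrays, 12.58, 10.83 and 10.41 on Foxn1 mutant arrays, and 8.51, 7.38 and 15.42 on Tbx1 mutant arrays. Platelet factor Pf4, picked after its values were seen, read 11.23, 7.94 and 9.71 on wild type arrays, 8.77, 9.15 and 8.81 on Foxn1 mutant arrays, and 8.76, 10.56 and 9.03 on Tbx1 mutant arrays. Tbx1 mutant replicate 2 was thus the second highest array for Pf4 while it was the lowest for Alas2 and Slc4a1. Of the 8 macrophage genes, 6 were higher in the Foxn1 mutants than in wild type and 5 in the Tbx1 mutants, and limma called none. The 2 of lowest F-test p went opposite ways. They were chosen by that p, so the separation of their arrays follows in part from the choice. The share of all clusters separated in this way was not computed. The complement gene C1qc had means of 4.70 ± 0.22 for wild type, 5.56 ± 0.17 for Foxn1 and 5.33 ± 0.22 for Tbx1 mutants (SD, n = 3), and each mutant array was above each wild type array. C1qc lay near background in wild type and was above the negative-control median on 8 arrays. Hmox1, which breaks down heme, had means of 7.22 ± 0.15, 6.26 ± 0.71 and 6.40 ± 0.47, and each mutant array was below each wild type array. In limma the adjusted p was 1.00 for both genes in both comparisons with wild type.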
